A study of Mus musculus with 24 samples.

Results

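The comparison was between lung metastasis cells labelled shAsns-1 and lung metastasis cells labelled shAsns-2, which are hairpins against the same gene, Asns. The libraries compared were 8 of the 24 of the series, namely the 4 lung libraries of each hairpin, lettered A to D, and every gene of the count table was taken. All groups held 4T1-T cells, a mouse breast cancer line, that had been taken from a host, selected in 6-thioguanine, kept in DMEM to which non-essential amino acids were added, and infected with an shRNA. The lung shAsns-1 and lung shAsns-2 cells came from lung metastases. The 4 lung shRenilla libraries carried a hairpin against a luciferase and served as a reference level, and the 4 tumor shAsns-1 and 4 tumor shAsns-2 libraries, from primary tumors, gave the same comparison at the other site. The sources used here do not give the age or strain of the host, the promoter that drives the hairpin, or whether a label is 1 clone. Nor do they say what letters A to D stand for (animals, cultures or repeat preparations). All p-values here reflect only scatter among libraries, part of which may be technical. For edgeR this scatter was estimated in a fit of all 24 libraries, tumor shRenilla included, and not from the 8 compared libraries alone.

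Asns encodes asparagine synthetase, which makes asparagine from aspartate with glutamine as the nitrogen donor. Its transcription is raised through the transcription factor ATF4 when amino acids run short. Asparagine supply has been linked to the epithelial-to-mesenchymal transition of breast cancer cells, in which cells lose junction and keratin genes and gain matrix and motility genes. A hairpin lowers a target by pairing with its mRNA, so 2 hairpins against 1 gene are usually read side by side to separate the shared effect from what belongs to a single hairpin.

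In the libraries labelled shAsns-1, Asns was 4.35-fold higher than in shAsns-2, and 32 other genes were called. The genes that were lower in the libraries labelled shAsns-1 were mostly epithelial: the adhesion molecule Epcam, the tight junction genes Ocln, Marveld2 and Cldn9, the desmosomal cadherin Dsg2 and the keratin Krt7. The genes that were higher were led by the matrix and stromal genes Col3a1, Pi15, Igfbp5, Nrep and Sparcl1, and in that group the excess lay mostly in a single library, lung shAsns-1 D. Genes were called at an adjusted p under 0.05 (edgeR quasi-likelihood test, Benjamini-Hochberg over 12625 tested genes). By that rule 33 genes, or 0.261% of those tested, differed, with 18 higher (0.143%) and 15 lower (0.119%) in the libraries labelled shAsns-1. At an unadjusted p under 0.05 there were 707 genes (5.60%).

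The 8 lung libraries held 24.8 to 35.5 M counts each, and no pair of them agreed within sampling noise. The first principal component of the 8 (39.5% of the variance) set lung shAsns-2 D apart, at -42.9 against -9.48 to 21 for the others. The second (21.3%) ran from the shAsns-2 libraries up to lung shAsns-1 D at 27. Among the 12 lung libraries, lung shRenilla B stood apart on the first component, at 61.2. The labels give no sequencing or preparation batch.

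Promoter windows of RefSeq genes (build GRCm38.p6, 250 bases before to 50 bases after the annotated start, printed 5′ to 3′ on the gene's own strand) are shown for the target and for called genes that hold a motif of interest; 21 of the 33 called genes matched a window. The first motif is TGATGNAA, the core of the C/EBP-ATF element through which ATF4 acts, searched on both strands. It occurs in the windows of Asns, Atf3 and Pck2, which makes 2 of 10 called higher and 1 of 11 called lower, against 2.77% of 9309 tested genes with a window. Capitals mark the match, which begins 23 bases before the start in Asns, 110 before it in Atf3 and 103 before it in Pck2. The match reads on the gene's strand in Asns and on the opposite strand in the other two. The Asns window lies at chr6:7693160-7693459 on the minus strand, the Atf3 window at chr1:191183284-191183583 on the minus strand and the Pck2 window at chr14:55540016-55540315 on the plus strand.
Asns: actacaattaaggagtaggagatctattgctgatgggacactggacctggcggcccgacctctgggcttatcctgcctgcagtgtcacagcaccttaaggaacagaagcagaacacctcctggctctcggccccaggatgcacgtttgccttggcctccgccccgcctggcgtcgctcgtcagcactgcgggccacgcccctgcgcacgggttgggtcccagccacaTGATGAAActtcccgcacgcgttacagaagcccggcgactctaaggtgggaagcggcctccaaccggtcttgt
Atf3: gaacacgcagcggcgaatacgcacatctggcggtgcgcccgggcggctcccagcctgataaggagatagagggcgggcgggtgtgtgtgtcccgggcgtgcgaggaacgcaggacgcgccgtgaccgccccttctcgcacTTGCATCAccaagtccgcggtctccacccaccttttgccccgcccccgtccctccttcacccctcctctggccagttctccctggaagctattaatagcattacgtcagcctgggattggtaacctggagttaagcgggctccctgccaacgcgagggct
Pck2: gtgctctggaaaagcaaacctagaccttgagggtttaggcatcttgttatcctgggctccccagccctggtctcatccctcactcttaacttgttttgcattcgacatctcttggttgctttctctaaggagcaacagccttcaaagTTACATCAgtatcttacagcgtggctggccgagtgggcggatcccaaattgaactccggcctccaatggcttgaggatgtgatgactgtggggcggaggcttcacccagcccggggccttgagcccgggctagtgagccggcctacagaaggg

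The second motif is CACCTG, the E-box that the repressors ZEB1 and SNAI1 are known to bind in epithelial promoters, again searched on both strands, so that it also appears as CAGGTG. It does not overlap the first motif in any window printed. Of the 11 lower genes with a window, 7 held it (Serpinb5, Krt7, Ocln, Epcam, Ano1, Slc25a40 and Marveld2), and of the 10 higher genes 1 did (Icam1), against 20.5% of the 9309 tested genes with a window. The windows of 3 of the lower genes are printed because they code for an adhesion molecule, a junction protein and a keratin. Epcam (chr17:87635729-87636028, plus strand) holds matches from 187 and 19 bases before its start. Ocln (chr13:100552449-100552748, minus strand) holds them from 213 and 68 bases before its start, and Krt7 (chr15:101412153-101412452, plus strand) from 44 bases before. A match describes letters in a window and is neither a binding site nor a cause.
Epcam: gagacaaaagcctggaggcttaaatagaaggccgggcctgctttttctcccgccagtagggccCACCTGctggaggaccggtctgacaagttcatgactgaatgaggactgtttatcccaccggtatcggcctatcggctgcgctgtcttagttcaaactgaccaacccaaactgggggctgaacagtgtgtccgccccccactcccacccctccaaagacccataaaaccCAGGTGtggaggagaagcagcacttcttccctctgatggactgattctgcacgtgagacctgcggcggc
Ocln: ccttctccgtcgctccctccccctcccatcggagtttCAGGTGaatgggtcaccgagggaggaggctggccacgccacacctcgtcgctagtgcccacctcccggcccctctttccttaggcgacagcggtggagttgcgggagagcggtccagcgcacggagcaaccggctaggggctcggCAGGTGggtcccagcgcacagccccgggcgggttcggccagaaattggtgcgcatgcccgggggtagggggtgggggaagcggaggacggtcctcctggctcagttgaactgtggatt
Krt7: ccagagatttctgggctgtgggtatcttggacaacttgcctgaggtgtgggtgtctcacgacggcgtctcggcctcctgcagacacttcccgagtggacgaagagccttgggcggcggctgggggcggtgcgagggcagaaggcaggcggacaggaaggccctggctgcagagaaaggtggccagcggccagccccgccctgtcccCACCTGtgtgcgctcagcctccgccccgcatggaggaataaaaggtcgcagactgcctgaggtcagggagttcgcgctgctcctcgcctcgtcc

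Asns stood at 219, 191, 176 and 189 CPM (counts scaled to the library's size after TMM) in lung shAsns-1 A to D. It stood at 44.5, 46.7, 51.3 and 35.8 CPM in lung shAsns-2 A to D, and at 69.1, 53.1, 70.2 and 61.9 CPM in lung shRenilla. Every library labelled shAsns-1 was thus above every other lung library, and the shAsns-2 libraries lay below the shRenilla libraries without overlap. The means were 194 ± 18.2 and 44.6 ± 6.51 CPM (SD, n = 4 per group), a log2 fold change of 2.12 ± 0.16 (SE; edgeR adjusted p = 9.35e-09; exact permutation p = 0.0286, two-sided, the smallest that the 35 splits of 4 against 4 allow). Since the target was above the control hairpin in the libraries labelled shAsns-1, which runs against a knockdown, each direction below compares libraries by label and not degrees of knockdown. Asns lies on the minus strand of chromosome 6 between positions 7675169 and 7693254 (GRCm38, GENCODE M21). Whether the counted reads fall outside the part that a hairpin targets cannot be told from counts per gene.

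The 6-thioguanine selection works through Hprt, the purine salvage enzyme that turns the drug toxic. Hprt stood at 494, 437, 422 and 458 CPM in the libraries labelled shAsns-1 and at 564, 661, 654 and 436 CPM in shAsns-2. The groups overlapped through lung shAsns-2 D. The log2 fold change was -0.35 ± 0.16 (edgeR adjusted p = 0.844; exact permutation p = 0.114, two-sided), and limma with library weights gave an adjusted p of 0.00104.

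The other enzymes that handle asparagine, aspartate and glutamine were tested as a list of 19 genes. Their median log2 fold change was -0.02, against 0.01 for all tested genes, and Asns and Gpt2 were the members called, beside 0.261% of all tested genes. Gpt2, a mitochondrial transaminase that links glutamate and alanine, was lower at 10.2, 10.5, 11.9 and 9.19 CPM in lung shAsns-1 A to D. In lung shAsns-2 A to D it was at 19.5, 18.1, 16.3 and 12.9 CPM. The ranges did not overlap, and lung shAsns-2 D was nearest to the other hairpin (-0.68 ± 0.15, adjusted p = 0.0434; -0.64 and 0.241 without lung shAsns-1 D). It was called in 2 of the 8 fits that left out 1 compared library. The aspartate transaminase Got1 averaged 82.4 ± 1.36 and 83.7 ± 8.46 CPM and glutamine synthetase Glul 12.2 ± 0.275 and 10.6 ± 0.623 CPM; neither was called.

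Pck2, the mitochondrial PEP carboxykinase, was lower in the libraries labelled shAsns-1. It stood at 5.98, 6.3, 6.85 and 6.72 CPM there and at 13.5, 11.2, 10.6 and 10.6 CPM in shAsns-2. The groups were far apart relative to their spread (-0.83 ± 0.15, adjusted p = 0.0114), with shRenilla at 6.25 to 8.97 CPM, nearer to the libraries labelled shAsns-1. Without lung shAsns-1 D the log2 fold change was -0.86 and the adjusted p 0.0501, and 4 of the 8 fits that left out 1 compared library called it.

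Among 33 tested ATF4 target genes, which include amino acid transporters, tRNA ligases and serine enzymes, 1 was higher, none was lower and 32 were not called. Over all tested genes 0.143% were called higher and 0.119% lower. The list does not hold Asns or Pck2, which were called, Asns higher and Pck2 lower, and are given above. Of the 33 members, 23 had a negative log2 fold change, and the median was -0.09. The member called was Atf3, a stress-induced transcription factor, at 8.11, 7.55, 7.97 and 8.76 CPM in the libraries labelled shAsns-1 and 5.07, 4.83, 5.99 and 6.25 CPM in shAsns-2. The groups did not overlap and the difference was small (0.55 ± 0.12, adjusted p = 0.0409; 0.50 and 0.331 without lung shAsns-1 D). It was called in 2 of the 8 fits that left out 1 compared library. Atf4 itself averaged 159 ± 9.54 and 153 ± 8.55 CPM. Several members that make serine or one-carbon units were lower without reaching the call: Psph, the last enzyme of serine synthesis, averaged 110 ± 2.5 against 149 ± 21.5 CPM (-0.43 ± 0.10, adjusted p = 0.0779). Aldh1l2, a mitochondrial folate enzyme, averaged 5.9 ± 0.257 against 9.52 ± 1.76 CPM (-0.69 ± 0.18, adjusted p = 0.14). Without lung shAsns-2 D, a fit that called 84 genes (0.661% of those tested), 4 ATF4 targets were called lower and 1 higher. None of 16 serine and one-carbon enzymes (median -0.09), 15 amino acid transporters (median 0.00397) and 20 cytosolic aminoacyl-tRNA synthetases (median -0.05) was called by edgeR. Before adjustment 5, 1 and 2 of them, all lower, passed at 0.05, beside 5.60% of all tested genes in either direction. DESeq2 called 1 serine or one-carbon enzyme and none of the others, beside 0.439% of all genes it tested. Limma with library weights called 6 serine and one-carbon enzymes lower, 5 synthetases lower, and 2 transporters higher and 1 lower. Among the ATF4 targets limma called 9 lower and 2 higher, and DESeq2 1 lower and 2 higher. Over all 12625 tested genes limma called 831 lower and 1093 higher, together 15.2%.

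The epithelial adhesion and identity list held 54 tested genes, of which 7 were lower, beside 0.119% of all tested genes, none was higher and 47 were not called. Its median log2 fold change was -0.365, against 0.01 over all tested genes, and 45 members were negative. In 11 of the 54 every library labelled shAsns-1 was below every shAsns-2 library, beside 2.23% of all tested genes. This list, like the others, was chosen with earlier results of these data known, so its counts are a description and not a test.

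Epcam, the epithelial cell adhesion molecule, was at 12.9, 11.5, 8.27 and 10.7 CPM in lung shAsns-1 A to D and at 19.3, 21.8, 24.4 and 17.4 CPM in lung shAsns-2 A to D. The groups did not overlap, and shRenilla, at 19.7 to 22 CPM, lay within the shAsns-2 range (-0.94 ± 0.15, adjusted p = 0.00424). Dsg2, a cadherin of desmosomes, was at 11.9, 12.6, 10.5 and 10 CPM against 17.9, 20.3, 20.3 and 25.1 CPM. Again no library of one hairpin reached the other (-0.89 ± 0.16, adjusted p = 0.00876). Its exons share 330 of 8268 bases with an antisense gene, Gm16090. Exons of Ereg, Gadd45a, Icam1, Krt7, Pck2 and Pi15 also overlap genes on the opposite strand, and with the strand setting not given in the sources used here, reads of such pairs cannot be told apart.

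Tight junction genes were lower as well. Occludin (Ocln) was at 2.78, 2.8, 1.98 and 1.81 CPM in the libraries labelled shAsns-1 and at 4.97, 6.22, 5.92 and 4.44 CPM in shAsns-2 (-1.21 ± 0.19, adjusted p = 0.00424). Tricellulin (Marveld2) was at 4.42, 4.75, 3.88 and 4.86 CPM against 6.68, 7.15, 7.45 and 7 CPM (-0.66 ± 0.13, adjusted p = 0.0207). Neither gene had an overlap between the hairpins, and in both the shRenilla mean lay beyond that of shAsns-2. Cldn9, a claudin, was at 0.389 to 0.508 CPM against 0.711 to 2.72 CPM, with its lowest shAsns-2 value in library D (-1.85 ± 0.33, adjusted p = 0.00876). Its shRenilla libraries, at 0.477 to 0.77 CPM, were nearer to the libraries labelled shAsns-1. Of the 8 fits that left out 1 compared library, all called Ocln, 3 called Marveld2 and 6 called Cldn9. Without lung shAsns-1 D the edgeR adjusted p of both Marveld2 and Cldn9 was 0.0501.

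Macc1, a regulator of the MET receptor that also belonged to the list of receptor kinases and ligands, was at 4.38, 8.06, 4.55 and 4.83 CPM in lung shAsns-1 A to D and at 13.5, 15.5, 13.1 and 12 CPM in lung shAsns-2 A to D. The groups were apart although lung shAsns-1 B stood above its own group (-1.32 ± 0.17, adjusted p = 0.000117). Krt7, a simple-epithelium keratin, was at 3.46, 7.01, 3.67 and 4.32 CPM against 12.2, 14.7, 11.9 and 5.83 CPM. Here lung shAsns-1 B and lung shAsns-2 D crossed (-1.29 ± 0.25, adjusted p = 0.0197). Krt7 was called in 2 of the 8 fits that left out 1 compared library. Without lung shAsns-1 D its edgeR adjusted p was 0.124.

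The remaining epithelial genes that were named did not reach the call. E-cadherin (Cdh1) was at 19.2, 24.5, 19 and 18.6 CPM in the libraries labelled shAsns-1 and at 34.7, 35.6, 33.7 and 33.4 CPM in shAsns-2, without overlap (-0.76 ± 0.18, adjusted p = 0.0735). Krt18 averaged 224 ± 18.2 against 335 ± 112 CPM (adjusted p = 0.376) and Krt8 174 ± 13.2 against 223 ± 65.9 CPM (adjusted p = 0.742). In both keratins lung shAsns-2 D, at 174 CPM for Krt18 and 138 CPM for Krt8, was the lowest of all 8 libraries. The scaffold genes Tjp1 (90.9 ± 12.6 and 94.2 ± 8.01 CPM) and Ctnnd1 (165 ± 11.8 and 164 ± 10.6 CPM) had log2 fold changes of -0.05 and 0.01.

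**Figure D1:**
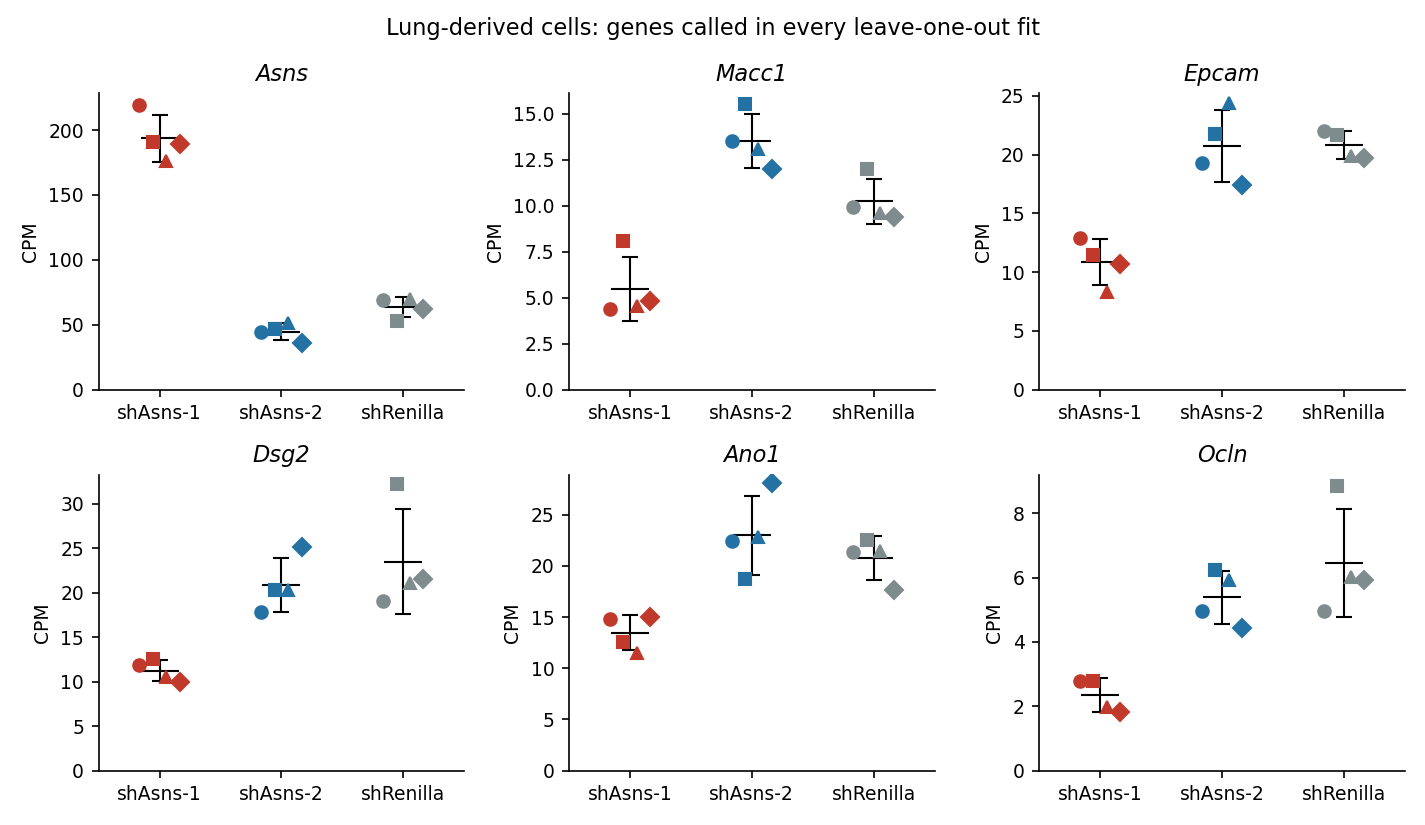
CPM of Asns and 5 lower genes in each lung library, by hairpin. Circles, squares, triangles and diamonds are libraries A, B, C and D, and bars are the mean and SD of 4 libraries. These 6 genes were called in each of the 8 fits that left out 1 of the compared libraries; Asns was higher and Macc1, Epcam, Dsg2, Ano1 and Ocln were lower in all 4 libraries labelled shAsns-1 than in any of shAsns-2.

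The other lower genes belonged to several classes. Serpinb5 (maspin), a serpin of mammary epithelium and the called member among 42 proteases and their inhibitors (beside 0.119% of all tested genes called lower), was at 3.2, 6.19, 2.19 and 3.36 CPM against 8.49, 14.1, 11.3 and 9.24 CPM (-1.55 ± 0.27, adjusted p = 0.00876). Ano1, a calcium-activated chloride channel, was at 14.8, 12.6, 11.5 and 15 CPM against 22.4, 18.7, 22.8 and 28.1 CPM (-0.77 ± 0.13, adjusted p = 0.00424). In both genes the hairpins did not overlap, and in Serpinb5 lung shAsns-1 B was again the library nearest to shAsns-2. Fgfbp1, a secreted carrier of fibroblast growth factors, ranged from 1.02 to 1.83 CPM against 2.85 to 4.52 CPM (-1.47 ± 0.30, adjusted p = 0.0254). The signal peptidase subunit Sec11c ranged from 142 to 201 CPM against 232 to 323 CPM (-0.68 ± 0.13, adjusted p = 0.0203). The mitochondrial carrier Slc25a40 ranged from 19.6 to 21.6 CPM against 30.5 to 37.6 CPM (-0.70 ± 0.14, adjusted p = 0.0254). Of the 8 fits that left out 1 compared library, 6 called Serpinb5, 3 called Fgfbp1, and 4 each called Sec11c and Slc25a40. Without lung shAsns-1 D the edgeR adjusted p was 0.124 for Fgfbp1 and 0.0501 for Serpinb5, Sec11c and Slc25a40.

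Of the 15 lower genes, 13 had a shRenilla mean nearer to shAsns-2 than to the libraries labelled shAsns-1, the others being Cldn9 and Pck2. Of the 18 higher genes, 11 had a shRenilla mean nearer to shAsns-2. Over both directions the shRenilla mean lay between the hairpins in 24 of the 33.

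The higher genes separate by how the 4 libraries labelled shAsns-1 share the excess. In 14 of the 18, library D was the highest. Col3a1, a fibrillar collagen of stroma, was at 1.6, 0.311, 0.669 and 8.53 CPM in lung shAsns-1 A to D and at 0.127, 0.155, 0.13 and 0.178 CPM in lung shAsns-2 A to D. The groups did not overlap, but library D held 9.92 times the mean of A to C (fitted log2 fold change 4.18 ± 0.79, adjusted p = 0.0145). Without library D the log2 fold change was 2.49 and the adjusted p 0.218. Part of its exons, 141 of 9816 bases, also carries the microRNA gene Gm47302.

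Pi15, a secreted protein of the CAP family, was at 1.45, 1.09, 0.936 and 13.9 CPM against 0.348, 0.31, 0.163 and 0.32 CPM (3.89 ± 0.73, adjusted p = 0.0145). Igfbp5, a binding protein for insulin-like growth factors, was at 2.25, 1.4, 1.2 and 9.5 CPM against 0.19, 0.526, 0.195 and 0.0711 CPM (3.80 ± 0.64, adjusted p = 0.00623). In both genes all 4 libraries labelled shAsns-1 were above all shAsns-2 libraries and D stood far above A to C. Without D the log2 fold changes were 1.98 (adjusted p = 0.243) for Pi15 and 2.64 (adjusted p = 0.0501) for Igfbp5.

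Nrep, a regulator of fibroblast movement, was at 0.623 to 0.883 CPM in A to C and 7.91 CPM in D, against 0.253 to 0.358 CPM in shAsns-2 (3.06 ± 0.67, adjusted p = 0.0435; 1.38 and 0.909 without D). Sparcl1, a matrix protein of the SPARC family, was at 1.6, 0.389, 0.642 and 7.1 CPM against 0.127 to 0.423 CPM (3.06 ± 0.66, adjusted p = 0.0409; 1.58 and 0.767 without D). Sparcl1 overlapped between the hairpins through library B. The cyclophilin Ppic was at 0.535 to 1.26 CPM in A to C and 4.02 CPM in D, against 0.0619 to 0.358 CPM (2.96 ± 0.62, adjusted p = 0.0316; 1.93 and 0.452 without D). Cdh11, the cadherin of mesenchymal cells, was at 2.06, 0.934, 1.02 and 5.1 CPM against 0.348, 0.526, 0.358 and 1.07 CPM, an overlap through lung shAsns-2 D (1.98 ± 0.43, adjusted p = 0.0414; 1.21 and 0.53 without D).

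Cdh11 and Col3a1 were the called members among 54 tested mesenchymal and matrix genes. Of these, 2 were higher, beside 0.143% of all tested genes, none was lower and 52 were not called, and 47 had a positive log2 fold change. The list's median was 0.34, and 0.18 once library D was left out, in a fit that called none of its members and 0.0471% of all tested genes. In some members below the call the excess lay in the same library. Col1a2 was at 2.09, 0.895, 1.23 and 8.53 CPM against 0.293 to 0.782 CPM (2.70 ± 0.61, adjusted p = 0.0525), and Dcn (decorin) at 2.4, 2.92, 1.31 and 8.61 CPM against 0.341 to 1.53 CPM (2.00 ± 0.46, adjusted p = 0.0578). Others moved little without D: Tnc, a matrix glycoprotein, went from 0.74 to 0.66, and the transcription factors Snai1 from 0.42 to 0.39 and Zeb1 from 0.29 to 0.29. The general mesenchymal genes Vim (3550 ± 430 and 3430 ± 403 CPM), Fn1 (1070 ± 137 and 973 ± 382 CPM), Zeb2 (98.1 ± 10.6 and 85.1 ± 3.77 CPM) and Twist1 (33.7 ± 4.78 and 30.1 ± 1.71 CPM) had adjusted p-values of 0.994 each. The Fn1 mean of shAsns-2 was raised by lung shAsns-2 D, whose value is given at the end. Over the list the mean log2 CPM was 4.17, 3.84, 4.05 and 4.71 in lung shAsns-1 A to D. It was 3.52, 3.54, 3.56 and 4 in lung shAsns-2 A to D, so the last library of each hairpin was its highest. In this list limma with library weights called 28 genes higher, beside 15.2% of all tested genes in either direction.

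The 9 markers of fibroblasts include Col1a2, Col3a1 and Dcn, so their sum repeats genes described above. None of the 9 was at 0 in all 8 libraries. They summed to 69.6 CPM in lung shAsns-1 D, 34.2 to 35.3 CPM in A to C, 24.1 to 27.3 CPM in shAsns-2 and 26.4 to 51.4 CPM in shRenilla. Pdgfra alone gave 28.4 to 41.2 CPM of these sums in the libraries labelled shAsns-1 and 22.1 to 24.9 CPM in shAsns-2. The other 8 markers summed to 6.89, 4.4, 3.72 and 28.5 CPM in lung shAsns-1 A to D, 1.49 to 2.35 CPM in shAsns-2 and 1.65 to 3.67 CPM in shRenilla, so the excess in D was steeper without Pdgfra. Most of the 28.5 CPM in D was Col1a2 (8.53), Col3a1 (8.53) and Dcn (8.61). Col1a1 was at 1.39 CPM there, and Lum, Thy1, Fbln1 and Postn were at 0.695 CPM or less. Of the 7 markers of smooth muscle and pericytes, the sum ran from 1.91 to 6.29 CPM, highest in D, against 1.49 to 3.23 CPM. Acta2 alone gave 1.48 to 5.21 against 1.05 to 2.77 CPM of it, and each of the others was at 0.309 CPM or less. The part of either marker group in the result was not tested, and in these bulk libraries a change in the number of cells of a type and a change in RNA per cell cannot be told apart. Neutrophil markers (6, none at 0 throughout) summed to 9.26 to 11.9 CPM against 4.61 to 8.14 CPM. Most of that was S100a8, at 7.6 to 10.1 against 2.82 to 6.29 CPM, while S100a9, Csf3r, Elane and Mpo were at 0 to 0.187 CPM. Macrophage markers (8, with 1 at 0 throughout) summed to 28.5 to 38.4 CPM against 27 to 32.4 CPM, mostly Cd14 and Mrc1. Among them Lyz2, the lysozyme of myeloid cells, was at 4.11, 1.36, 2.59 and 7.84 CPM in lung shAsns-1 A to D against 0.898 to 1.46 CPM in shAsns-2, highest in D like the matrix genes; its part in the result was not tested. T and NK cell markers (4 of 8 at 0 throughout), B cell markers (5) and alveolar or airway markers (3 of 9 at 0 throughout) summed to at most 0.355 CPM in every lung library. Endothelial markers summed to 4.23 to 5.1 CPM against 4.04 to 4.94 CPM, mostly Tie1 (3.1 to 4.2 against 2.98 to 4.21 CPM). The 8 markers of mammary carcinoma epithelium, 1 of them at 0 throughout, summed to between 983 and 1070 CPM in the libraries labelled shAsns-1 and 973 to 1300 CPM in shAsns-2. The largest part in each library was Cd24a, at 562 to 626 against 524 to 640 CPM. Krt18 followed at 199 to 239 against 174 to 422 CPM, while Epcam was at 8.27 to 12.9 against 17.4 to 24.4 CPM. Transcripts of these 3 markers were thus present in all 8 libraries, and the share of the labelled cell type was not tested.

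**Figure D2:**
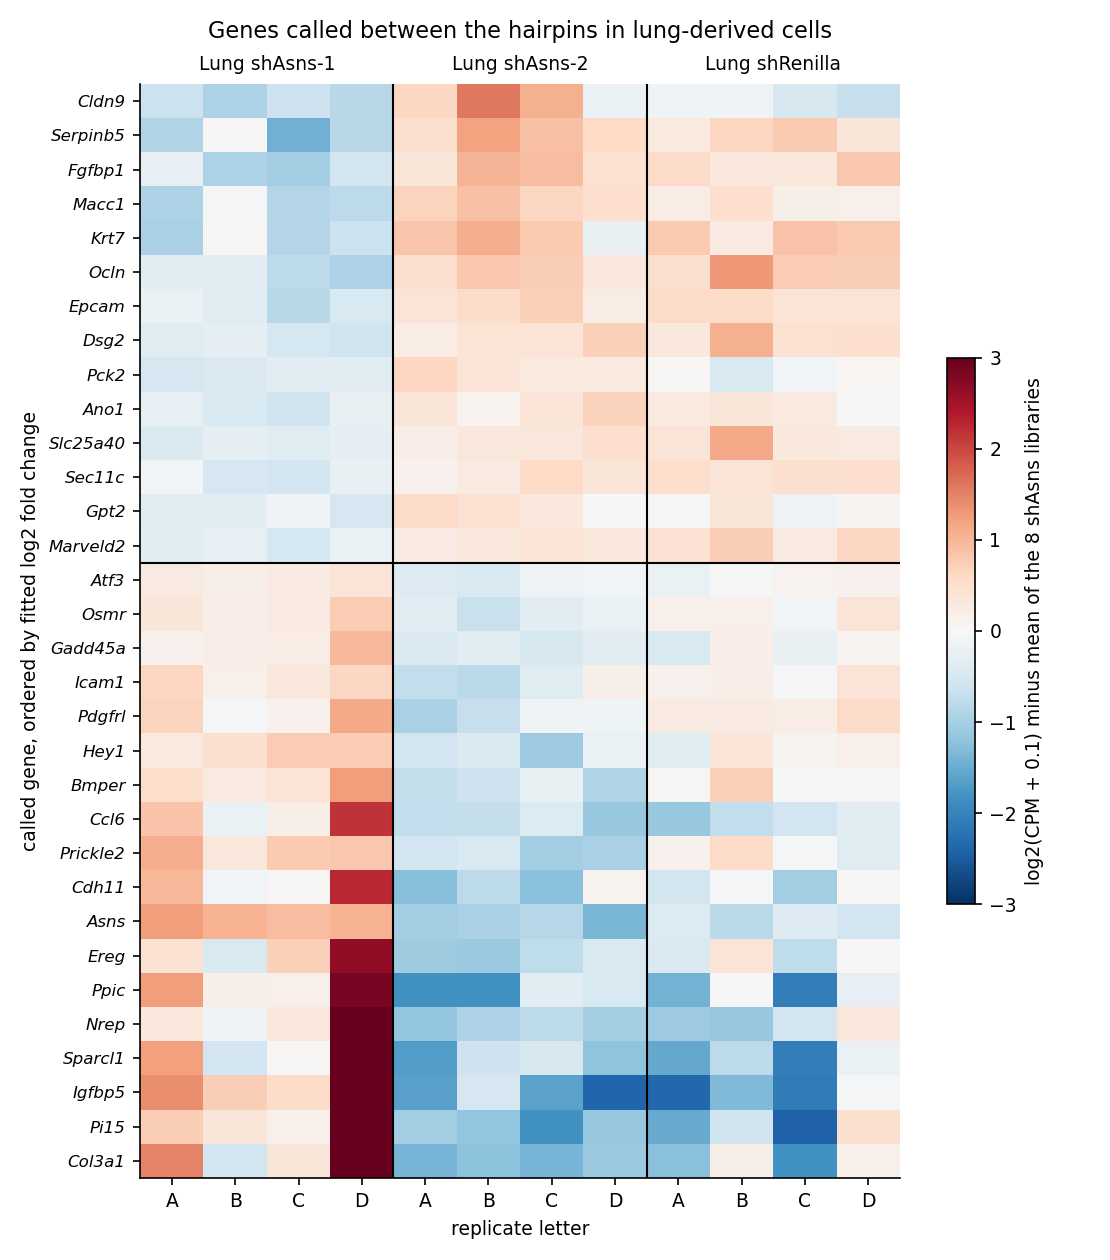
Levels of 32 of the 33 genes called in lung (rows, by fitted log2 fold change) in the 12 lung libraries (columns). Colour is log2(CPM + 0.1) minus the mean of the 8 shAsns libraries, cut at 3 on either side. Epithelial genes are mostly blue in the 4 libraries labelled shAsns-1 and palest in library B for Serpinb5, Macc1 and Krt7, while the darkest red of the matrix genes at the foot lies in library D alone, where Col3a1 reached 8.53 CPM.

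Among the other higher genes, Icam1, an adhesion receptor for leukocytes induced by cytokines, was at 18.9, 13.3, 15.3 and 18.4 CPM against 7.13, 6.87, 9.28 and 13.5 CPM, an overlap through lung shAsns-2 D and lung shAsns-1 B (0.84 ± 0.19, adjusted p = 0.0489; 0.77 and 0.334 without lung shAsns-1 D). Osmr, the receptor for oncostatin M, was at 13.6, 12.2, 12.6 and 18.1 CPM against 8.33, 6.63, 8.3 and 9.24 CPM without overlap (0.80 ± 0.15, adjusted p = 0.0162; 0.65 and 0.185 without D). The chemokine Ccl6 was at 2.7, 1.25, 1.66 and 6.83 CPM against 0.604 to 1.07 CPM (1.88 ± 0.38, adjusted p = 0.0207; 1.14 and 0.33 without D). These 3 genes lost the call without D while their direction stayed, and of the 8 fits that left out 1 compared library 2 called Icam1 and 4 each called Osmr and Ccl6.

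Icam1 was the called member of 38 cytokines, chemokines and their partners. Of these, 1 was higher, beside 0.143% of all tested genes, none was lower, 37 were not called and 32 were positive. Their median was 0.25, and 0.25 also without lung shAsns-1 D. In 8 of the 38 every library labelled shAsns-1 was above every shAsns-2 library, beside 3.17% of all tested genes. Among the uncalled members, Cxcl5, a neutrophil chemokine, averaged 116 ± 8.55 against 79.9 ± 17.9 CPM (0.53 ± 0.17, adjusted p = 0.342). Ccl7, a monocyte chemokine, averaged 27.1 ± 5.67 against 15.2 ± 3.9 CPM (0.83 ± 0.21, adjusted p = 0.109).

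Ereg (epiregulin), a ligand of the EGF receptor, was at 2.4, 1.21, 2.89 and 11.4 CPM against 0.76, 0.743, 0.976 and 1.21 CPM (2.27 ± 0.45, adjusted p = 0.0207; 1.24 and 0.33 without D). It was the called member that was higher among 35 receptor kinases and ligands, where Macc1 was the one that was lower. Over all tested genes 0.143% were called higher and 0.119% lower. Pdgfrl, a secreted relative of PDGF receptors, was at 21.5, 13, 14.8 and 29.7 CPM against 6.81, 8.27, 12.5 and 12.3 CPM (0.98 ± 0.22, adjusted p = 0.0489; 0.71 and 0.533 without D). Both had their highest value in D, and Pdgfrl was apart by a narrow margin, 13 against 12.5 CPM.

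Gadd45a, a growth arrest gene that p53 induces, was at 11.3, 11.9, 12.1 and 20.1 CPM against 7.6, 8.24, 7.36 and 8.21 CPM (0.82 ± 0.16, adjusted p = 0.0206; 0.57 and 0.207 without D). It was the called member of 17 p53 targets (median 0.05), beside 0.143% of all tested genes called higher. Atf3 was the called member of 29 AP-1 and immediate early genes, beside the same share, and 25 of the 29 were positive (median 0.22). Another 3 genes, all developmental regulators, were higher by a similar amount without D. Hey1, a Notch target, ranged from 0.838 to 1.2 CPM against 0.26 to 0.569 CPM (1.31 ± 0.29, adjusted p = 0.0444; 1.23 without D). Prickle2, of the planar polarity pathway, was at 0.506 to 0.914 CPM against 0.13 to 0.248 CPM (1.92 ± 0.41, adjusted p = 0.0392; 1.90 without D). Bmper, a modulator of bone morphogenetic protein signals, was at 1.71, 1.4, 1.55 and 2.86 CPM against 0.665, 0.712, 0.976 and 0.569 CPM (1.35 ± 0.24, adjusted p = 0.00978; 1.07 without D). Without D the adjusted p-values of these 3 were 0.243, 0.152 and 0.0747.

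**Figure D3:**
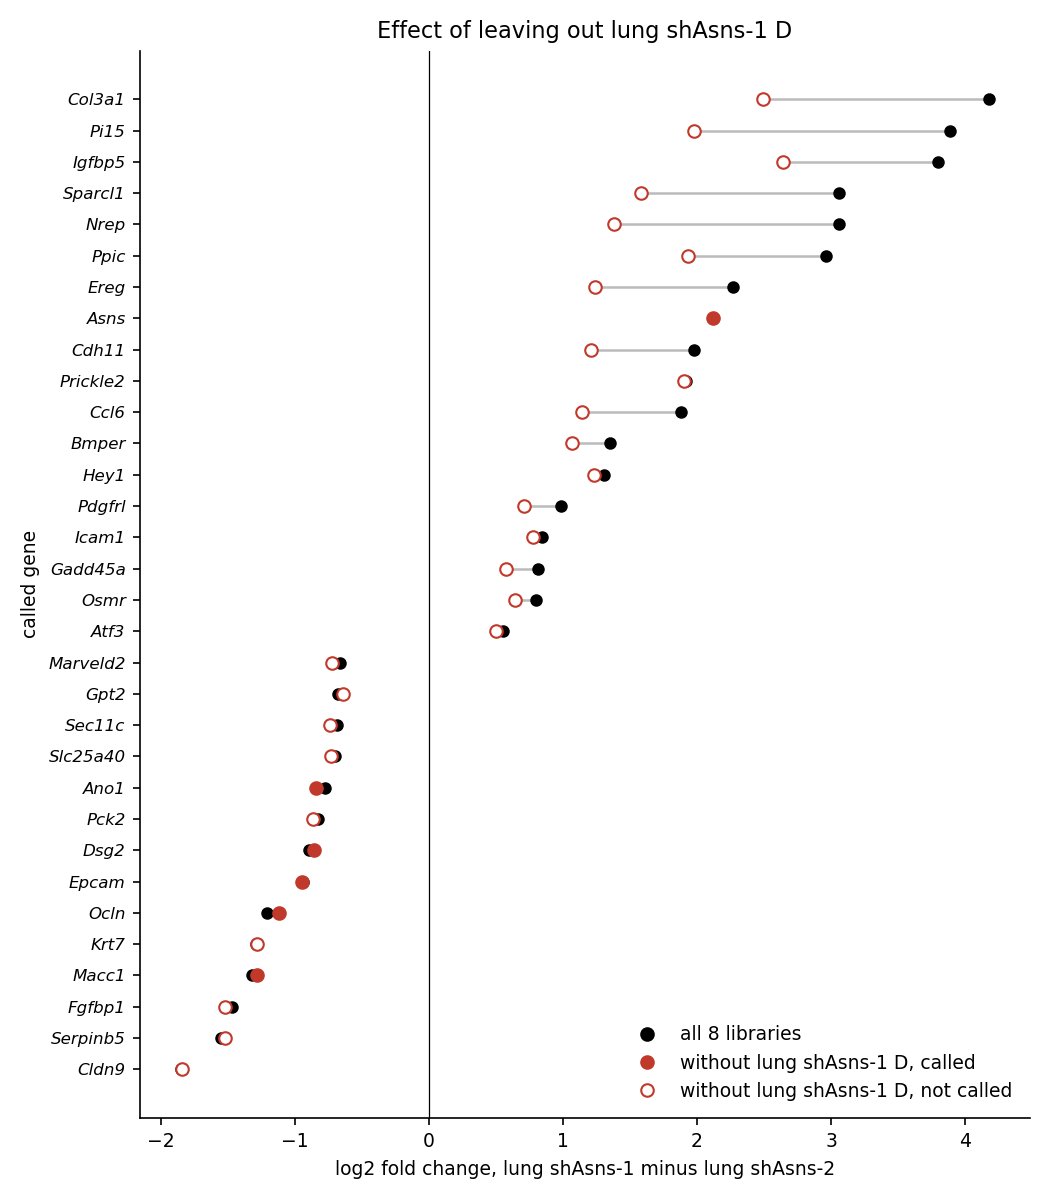
Log2 fold change of 32 of the 33 called genes, libraries labelled shAsns-1 minus shAsns-2 in lung, with all 8 libraries (black) and without lung shAsns-1 D (red, filled where still called). Asns and most lower genes moved little, while the matrix genes at the top moved toward 0, Col3a1 from 4.18 to 2.49; 6 were still called.

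Without lung shAsns-1 D, 6 genes (0.0471%) were called in all, and they were the 6 called in every leave-one-out fit: Asns higher, and Macc1, Epcam, Dsg2, Ano1 and Ocln lower. The loss was not particular to leaving out D in number, since 7 genes (0.0549%) were called without lung shAsns-2 B and 11 (0.0863%) without lung shAsns-2 C. Leaving out lung shAsns-2 D raised the count to 84, and leaving out lung shAsns-1 B raised it to 65 (0.510%). With a fit of only the compared groups, Epcam (adjusted p = 0.097), Ano1 (0.144) and Ocln (0.0686) lost the call, while Asns, Macc1 and Dsg2 were called. What set library D apart was the shift in the size of the fold changes of the matrix genes given above and of the interferon-stimulated genes given next.

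Interferon-stimulated genes showed the same library most clearly. None of 34 tested members was called, and 32 were positive. An unadjusted p under 0.05 (edgeR) was met by 17, beside 5.60% of all tested genes. The list's median of 0.495 was the highest of the 21 pathway lists. The mean log2 CPM over the list was 3.44 in lung shAsns-1 D, 2.33 to 2.41 in A to C, and 1.96 to 2.32 in shAsns-2. Ifi44 was at 2.13, 3.15, 1.69 and 28.1 CPM in lung shAsns-1 A to D against 1.21 to 3.87 CPM in shAsns-2, and Ifit3, an antiviral effector, at 1.45, 1.13, 1.52 and 12.8 CPM against 0.76 to 1.33 CPM. Library D alone carried the excess in both genes. Without D the median of the list was 0.13, and without lung shAsns-1 D and lung shAsns-2 D it was 0.07, against 0.02 over all tested genes in that fit.

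**Figure D4:**
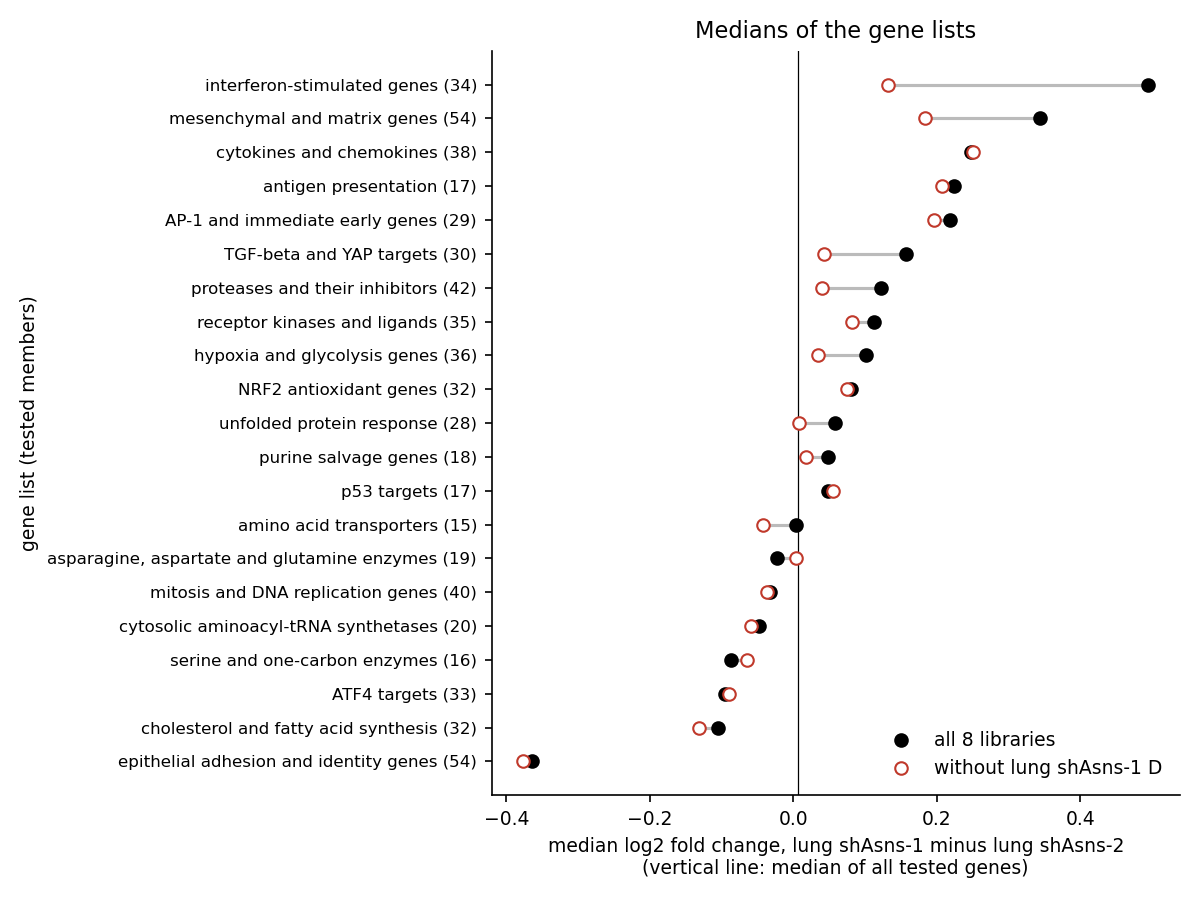
Median log2 fold change of each of 21 gene lists, libraries labelled shAsns-1 minus shAsns-2 in lung, with all 8 libraries (black) and without lung shAsns-1 D (red). The vertical line is the median of all tested genes, 0.01. The epithelial list lies lowest, at -0.365 with that library and -0.377 without it, and the interferon list moves from 0.495 to 0.132.

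By edgeR the remaining lists held no called member. They were the unfolded protein response (28 genes, median 0.06), cholesterol and fatty acid synthesis (32, -0.10), NRF2 antioxidant genes (32, 0.08), hypoxia and glycolysis (36, 0.10), TGF-beta and YAP targets (30, 0.16), antigen presentation (17, 0.22), mitosis and DNA replication (40, -0.03) and purine salvage (18, 0.05). Over the 12 lists with no edgeR call, which hold 318 tested genes, 42 passed 0.05 before adjustment, beside 5.60% of all tested genes. Calls by DESeq2 numbered 1, and those of limma with library weights 47 higher and 30 lower, with at least 1 in every list. TGF-beta and YAP targets had 14 limma calls, all higher, and antigen presentation had 8, all higher. Limma with library weights, which gives libraries that scatter less weight, called 1093 genes higher and 831 lower, together 15.2% of those tested, and DESeq2 called 63 (0.439%). Of the 33 genes, 32 were also called by limma and 32 by DESeq2.

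The libraries labelled tumor shAsns-1 stood nearer to the lung groups than to the other tumor groups. Over the 12625 tested genes the median absolute log2 difference of their group mean was 0.167 to 0.195 from the 3 lung groups, 0.26 from tumor shAsns-2 and 0.285 from tumor shRenilla, while tumor shAsns-2 and tumor shRenilla were 0.123 apart. The hairpin differences in tumor below, and the site differences built on them, rest on this group.

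The same hairpin comparison in tumor-derived cells gave 3424 called genes, 27.1% of those tested, and the median absolute log2 fold change over all tested genes was 0.265 there against 0.105 in lung. Of the 33 genes called in lung, 19 were called in the same direction in tumor (4 higher and all 15 lower), 2 in the opposite direction, and 12 were not called. Asns was at 185, 152, 185 and 159 CPM in tumor shAsns-1 A to D and at 48.3, 42.3, 30.4 and 26.2 CPM in tumor shAsns-2 A to D. Its log2 fold change was 2.22 ± 0.17 there, and the difference between sites was -0.10 ± 0.22 (edgeR adjusted p = 0.81). The target thus differed between the hairpins at both sites.

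The difference between sites was itself tested, as the hairpin difference in lung minus that in tumor, and 1468 genes (11.6%) were called by that test. Among the 33 genes 12 were called, 8 that were lower and 4 that were higher in lung. The log2 fold changes of the epithelial genes were smaller in lung than in tumor, where 44 of the 54 list members were called lower, beside 15.0% of all tested genes, with a median of -1.53. Epcam was at 19.9, 21.7, 21 and 15.5 CPM in tumor shAsns-1 A to D against 116, 130, 118 and 134 CPM in tumor shAsns-2 A to D, a log2 fold change of -2.67 ± 0.15 beside -0.94 in lung (difference 1.73 ± 0.21, adjusted p = 5.05e-06). Tumor shRenilla held 60.1 to 104 CPM of Epcam and the lung shAsns-2 libraries 17.4 to 24.4 CPM, so tumor shAsns-1 was at a lung level and the other tumor groups were above it. Macc1 was likewise at 9.04 to 12 CPM in tumor shAsns-1 against 79.3 to 113 CPM in tumor shAsns-2 and 88.5 to 119 CPM in tumor shRenilla, with 4.38 to 15.5 CPM over the lung libraries. Krt7 was at 8.41 to 19.5 CPM against 73.7 to 95.3 and 71.1 to 87 CPM, with 3.46 to 14.7 CPM in lung. Macc1 (-3.16 in tumor and -1.32 in lung, adjusted p = 5.45e-06 for the difference), Dsg2 (-2.67 and -0.89, 5.45e-06), Ocln (-2.68 and -1.21, 0.000489), Krt7 (-2.78 and -1.29, 0.00483), Marveld2 (-1.64 and -0.66, 0.000921), Serpinb5 (-2.99 and -1.55, 0.0123) and Fgfbp1 (-4.41 and -1.47, 1.84e-05) were the others. Pck2 (-0.80 and -0.83), Gpt2 (-0.90 and -0.68), Slc25a40 (-0.67 and -0.70) and Sec11c (-0.84 and -0.68) had differences between sites that were not called.

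Atf3 and Icam1 were higher in lung and lower in tumor in the libraries labelled shAsns-1. Atf3 was at 4.77, 4.82, 4.54 and 4.3 CPM in tumor shAsns-1 A to D against 9.08, 9.54, 10.5 and 10.6 CPM in tumor shAsns-2 A to D (-1.11 ± 0.12, adjusted p = 1.56e-07). Icam1 was at 5.26 to 6.47 CPM against 9.85 to 18.4 CPM in tumor (-1.19 ± 0.19, adjusted p = 5.37e-05). The site difference was 1.66 ± 0.17 for Atf3 (adjusted p = 3.09e-07) and 2.03 ± 0.27 for Icam1 (adjusted p = 1.68e-05). Gadd45a (0.82 in lung and -0.43 in tumor, adjusted p = 0.000701 for the difference) and Ccl6 (1.88 and -1.19, 0.00109) also differed between the sites, although their tumor differences were not called (adjusted p = 0.0523 and 0.0555). Col3a1, Pi15, Igfbp5 and Ppic were at most 0.139 CPM in every tumor shAsns library, and the differences between sites for these 4 genes were not called.

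**Figure D5:**
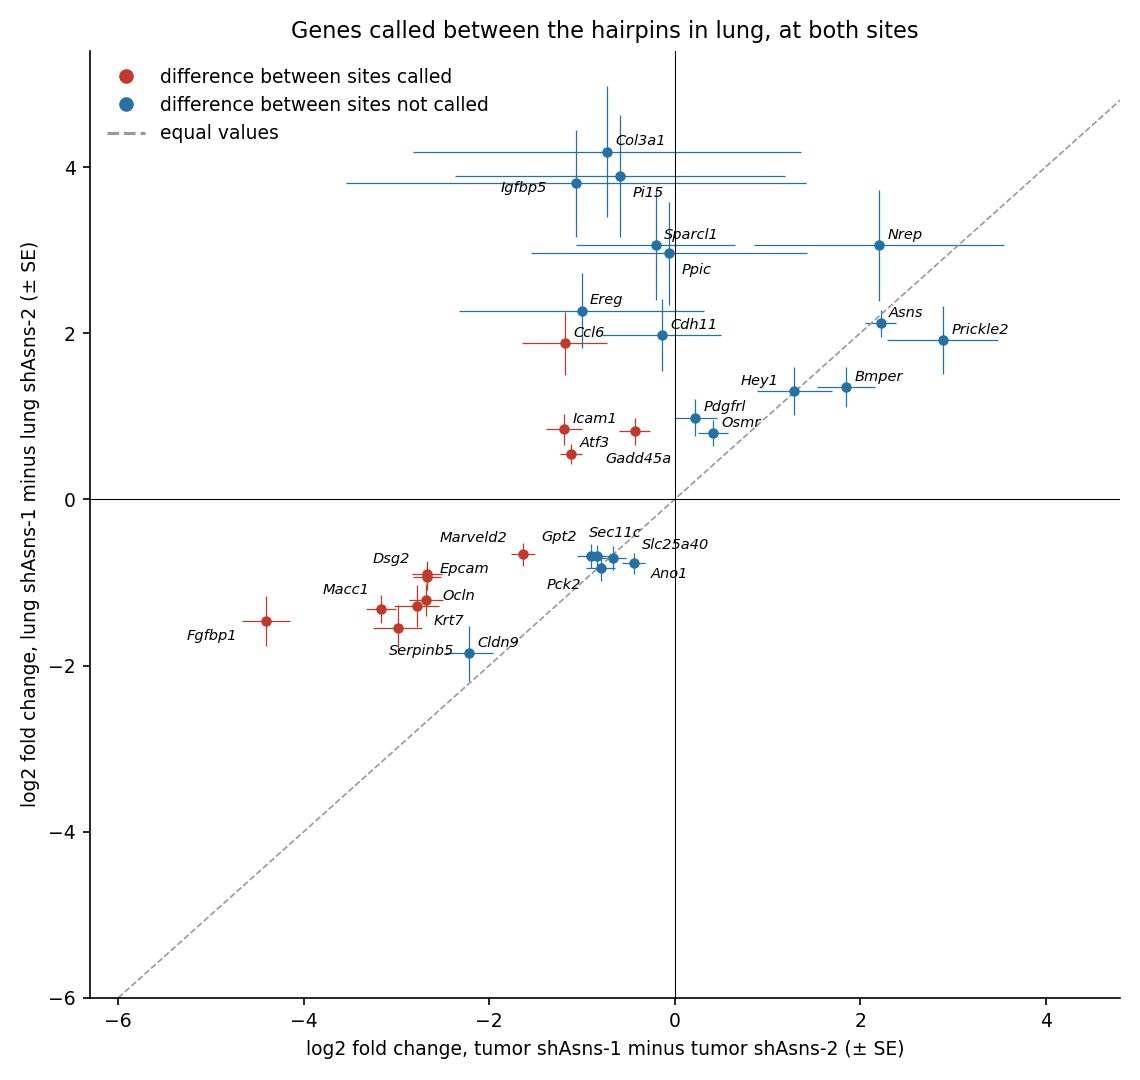
Log2 fold change of 32 of the 33 genes between the hairpins in tumor (horizontal axis) and in lung (vertical axis), with standard errors; red marks genes whose difference between sites was called. Most epithelial genes lie above the dashed line of equal values, as Epcam at -2.67 and -0.94, Asns lies near it, and Atf3 and Icam1 are on opposite sides of 0 at the sites.

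The 5 largest differences between sites among genes with a mean log2 CPM of 3 or more lay in genes that were not called in lung. Tslp, an epithelial cytokine, was between 311 and 451 CPM in the libraries labelled shAsns-1 and 333 to 398 CPM in shAsns-2 in lung (0.06 ± 0.18, adjusted p = 0.994), beside 342 to 575 and 36.9 to 71 CPM in tumor (3.09 ± 0.20). Mgp, an inhibitor of calcification, had log2 fold changes of 0.01 in lung and 2.93 in tumor, and Trib2, a pseudokinase, of -0.14 and 2.30. Adamts1, a matrix protease, had -2.55 in tumor and 0.05 in lung, and Krt14, a basal keratin, -2.90 and -0.32. In all 5 the lung groups of the hairpins overlapped. Tumor shRenilla was near tumor shAsns-2 and tumor shAsns-1 near the lung groups: Tslp was at 37.4 to 58.9 CPM in tumor shRenilla, against 311 to 728 CPM over the lung libraries. Mean CPM in tumor shAsns-1, tumor shAsns-2 and tumor shRenilla were 24.4, 3.23 and 2.16 for Mgp, beside 21.4 to 22 in the lung groups. They were 34.1, 6.8 and 4.02 for Trib2, beside 28.6 to 31.6 in lung. For Adamts1 they were 26.8, 156 and 187, beside 23.3 to 31.2 in lung, and for Krt14 5.66, 42.2 and 50.8, beside 7.84 to 9.79.

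The genes whose level followed Asns most closely over the 24 libraries, among those with a mean log2 CPM of 3 or more, were Mrs2 (Pearson r = 0.80), Gng2 (0.774), Selrc1 (0.70), Coprs (0.70) and Tceb3 (0.693). The libraries share cell line, kit and table, and these values describe likeness only. In lung, Mrs2, a mitochondrial magnesium channel, was between 12.3 and 12.8 CPM in the libraries labelled shAsns-1 against 9.63 to 11.7 CPM (0.23 ± 0.10, adjusted p = 0.799). Gng2, a G protein subunit, was at 16.9 to 20.3 CPM against 13.9 to 16.5 CPM (0.34 ± 0.10, adjusted p = 0.228). Neither overlapped between the hairpins, where 5.39% of all tested genes did not overlap in either direction. The choice by likeness to Asns used these lung libraries too, so it favours genes that separate the hairpins. None of the 5 was called in lung.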

How the data were processed

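RNA was profiled in 24 libraries of 6 groups of 4. Per the labels' protocols, Trizol was used for extraction and NuGEN Ovation RNAseq V2 for library preparation, and the submitters' processing notes name Bowtie2, HTSeq and the build mm10. The annotation, strand setting and filters are not given in the sources used here. The deposited table holds raw counts by gene symbol, taken as they are. Lung libraries of the compared groups held 24.8 to 35.5 M counts.

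Counts were fitted with edgeR 4.0.16 in R 4.3.3 (quasi-likelihood, robust, TMM, filterByExpr, all 24 libraries, 1 mean per group), which left 12625 genes with a common biological coefficient of variation of 14.9%. Standard errors were taken as the size of the log2 fold change divided by the root of F. CPM use TMM-scaled library sizes, and log2 CPM a prior count of 2. The call was an adjusted p (Benjamini-Hochberg) under 0.05. Exact permutation tests covered Asns and Hprt.

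Named genes were Asns, Hprt, the 15 largest differences in each direction among called genes with a mean log2 CPM of 3 or more over the 8 libraries, called list members, the 5 largest site differences and the 5 genes most like Asns. Other genes were named after their values were seen: the called Bmper, Ccl6, Cldn9, Fgfbp1, Hey1, Igfbp5, Nrep, Pi15, Ppic, Prickle2 and Sparcl1, and the uncalled list members. Values of 1 called gene are not reported here, though counts include it. The members and gene lists were chosen with earlier results of these data known.

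Positions are from GENCODE M21. Alternatives were limma 3.58.1 with library weights, DESeq2 1.42.0, edgeR on the size factors of DESeq2, a fit of only the compared groups, no filter, thinned counts, a replicate block, a 2-fold minimum, offsets for GC content and length, and libraries left out, with the pair lung shAsns-1 D and lung shAsns-2 D chosen after seeing the data. Figures were drawn with matplotlib 3.10.9 in Python 3.11.15.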

Additional observations from a re-analysis of the deposited data

Results flagged for a closer look

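Each value here is the CPM of a single library that stood apart from the other 3 of its group by Dixon's criterion at 95%, which chance meets in about 1 in 20 groups; 10 of 84 values examined met it. In 7 of the 10 the library was lung shAsns-1 D, the highest of its group for Gadd45a (20.1), Ereg (11.4), Nrep (7.91), Igfbp5 (9.5), Pi15 (13.9), Col3a1 (8.53) and the summed fibroblast markers (69.6). The fibroblast sum includes Col3a1, so these 7 values are not all separate. Lung shAsns-1 B was the highest of its group for Macc1 (8.06). Lung shAsns-1 A was the highest for the summed B cell markers (0.152). Lung shAsns-2 D was the lowest of its group for the summed markers of mammary carcinoma epithelium (973).

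The hairpin difference in lung and that in tumor differed by test (edgeR interaction, adjusted p under 0.05) in 17 named genes, given as the log2 difference of lung minus tumor. It was 0.974 for Marveld2, 1.25 for Gadd45a, 1.44 for Serpinb5, 1.47 for Ocln, 1.5 for Krt7, 1.66 for Atf3, 1.73 for Epcam, 1.78 for Dsg2, 1.85 for Macc1 and 2.03 for Icam1. It was 2.58 for Krt14, 2.6 for Adamts1, 2.94 for Fgfbp1 and 3.06 for Ccl6. It was -2.45 for Trib2, -2.92 for Mgp and -3.03 for Tslp. Of the 17, Ccl6, Gadd45a, Krt7, Marveld2 and Ocln were called in 26 of 27 alternatives, Serpinb5 in 24, and the others in all 27. Over all tested genes, tumor shAsns-1 lay nearer to each lung group than to tumor shAsns-2 or tumor shRenilla.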

How the results depend on the processing

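The count of genes called between the hairpins in lung, 33, was 63 with DESeq2, 1924 with limma and library weights, 61 with offsets for GC content and length, and 180 without the pair of lung shAsns-2 D and lung shRenilla B. It was 6 with only the compared groups, 10 with thinned counts, 1 (Asns) with a 2-fold minimum, 22 with no filter, and 16 without lung shAsns-1 D and lung shAsns-2 D, a pair chosen after seeing the data. With 1 compared library left out it ran from 6 (without lung shAsns-1 D) to 84 (without lung shAsns-2 D). The tumor count, 3424, was 173 with the 2-fold minimum and 2664 to 3266 with a library left out. The count of site differences, 1468, was 5032 with limma, 83 with the 2-fold minimum, 4097 without the former pair, 2551 without the pair of D libraries, and 928 to 3064 with a library left out. Genes called alike at both sites, 19, were 38 with DESeq2, 262 with limma, 6 with only the compared groups, 8 with thinned counts, 1 with the 2-fold minimum, 36 with the offsets, 56 without the former pair, 12 without the pair of D libraries, and 6 to 31 with a library left out. The cause of these shifts was not tested, beyond the fewer libraries that some fits use. Asns was called in all 19 alternatives, at 2.01 to 2.19 on the log2 scale. None of the 33 genes changed sign in any alternative, and 6 were called in each of the 8 fits that left out 1 compared library. Of these 6, Dsg2 lost the call without the pair of D libraries. DESeq2 size factors called 33 genes, 32 of them shared.

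No pairing of the lung libraries by replicate letter was seen: same-letter deviations correlated at -0.0737, 0.05, -0.204 and 0.124 for A to D. Deviations of different letters correlated at -0.2 to 0.235. So few values cannot exclude a source that libraries of a letter share. With the letter as a replicate block 35 genes were called, 29 of them shared. Values near 0 CPM rest on few counts, which limits the low matrix genes.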

Other observations

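Esrp1, a splicing regulator of epithelial cells, was chosen after its values were seen. It stood at 0.228, 3.85, 0.401 and 0.0772 CPM in lung shAsns-1 A to D and at 4.97, 4.4, 3.16 and 2.13 CPM in lung shAsns-2 A to D, so that library B lay within the shAsns-2 range and the other 3 libraries labelled shAsns-1 below it (log2 fold change -1.75 ± 0.55, edgeR adjusted p = 0.325). Lama3, a laminin chain of epithelial basement membranes, was at 2.13, 5.53, 2.41 and 3.05 CPM in lung shAsns-1 A to D and at 3.8, 5.42, 7.29 and 7.78 CPM in shAsns-2 (-0.90 ± 0.26, adjusted p = 0.204). Over the epithelial list, the mean log2 CPM was 2.5 in lung shAsns-1 B, 2.16 to 2.26 in A, C and D, and 2.63 to 2.78 in shAsns-2.

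Lung shAsns-2 D differed from lung shAsns-2 A to C across several lists. Its mean log2 CPM was 5.59 over TGF-beta and YAP targets, against 4.79 to 5.05 in A to C, and 5.33 over amino acid transporters, against 4.73 to 4.8. It was 4 over mesenchymal and matrix genes, against 3.52 to 3.56, and 1.96 over interferon-stimulated genes, against 2.25 to 2.32. Fn1 stood at 1540 CPM in this library, against 748 to 842 CPM in A to C.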
